A study of Gallus gallus with 6 samples.

Results

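The chicken miR-144/miR-451 cluster gives 3 mature miRNAs, and all 3 were listed in each of 6 small RNA libraries from leg muscle. They are gga-miR-451, gga-miR-144-3p and gga-miR-144-5p, chosen by name, and they are 3 of the 846 entries in the tables, of which 534 carry a miRBase-style chicken name. No other entry carried either number in its name, and no entry with a summed count of at least 60 had counts that matched one of the 3 within 10% or 3 counts in every library. By the labels, leg muscle came from female Xinghua chickens, a breed of Gallus gallus. They were embryos at E11 and E16 (age in days of incubation) and chicks at P1, the first day post hatch, with 2 libraries per age. Age was the sole labelled difference between the groups, no treatment of the birds is labelled, and the description of every library mentions RNase R and removal of ribosomal RNA. Whether separate animals gave the 2 libraries of an age is not labelled, so p-values measure the spread between these libraries, which may be technical.

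The cluster is transcribed as 1 primary RNA in developing red blood cells of vertebrates, where the transcription factor GATA1 activates it in mouse. Both hairpins are cut from that transcript, but they mature differently. The miR-144 hairpin is cut by Dicer into a pair of arms, and miR-144-3p is usually the arm that is kept. The miR-451 hairpin is too short for Dicer, and the slicing protein AGO2 cuts it instead, so that miR-451 has no separate second arm. In mouse miR-451 represses Ywhaz and protects red cells against oxidative stress. In zebrafish miR-144 represses a Kruppel-like factor of globin genes, and also Dicer. Red cells of birds keep their nucleus. In the NCBI RefSeq gene table of assembly GRCg7b the gene listed with the synonym gga-mir-451 (symbol MIR451B) directly neighbours MIR144, with no other gene between them. FLOT2 lies beyond MIR144, and a lncRNA gene and then ERAL1 lie beyond the other end. The deposited files name another build, galGal4, so no positions are given.

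Total counts ran from 303556 and 589154 at E11 to 2201359 and 2641042 at P1, so the cluster was counted least precisely at E11. The tissue label was checked on 13 muscle miRNAs (miR-1, miR-133, miR-206 and miR-499), with 0 to 4 of the 13 at 0 in a library. They took between 1.04% and 1.28% of counts at E11, between 7.37% and 7.92% at E16 and between 12.1% and 15.4% at P1. At E11 a list of 8 epithelial miRNAs took a similar share (1.18% and 1.21%), so the check does not set E11 apart as muscle. Levels are given as CPM, each count as a share of its library's total rescaled by edgeR's TMM factors. In whole muscle, more red cells and more of a miRNA per red cell cannot be told apart.

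miR-451 was the most abundant product of the cluster in every library. Its CPM in replicates 1 and 2 was 2641 and 2827 for E11, 5127 and 2386 for E16, and 32058 and 6934 for P1, and later pairs of values follow the same order. The E11 libraries lay close together, the E16 libraries lay on either side of them, and both P1 libraries were above all 4 embryonic ones. On the plain share of all counts this order held narrowly, with 0.558% in P1 replicate 2 and 0.534% in E16 replicate 1. The share of all entries with both P1 libraries above all 4 embryonic ones was not counted. The E11 levels rest on 905 and 1962 counts, those of E16 on 6419 and 2312, and those of P1 on 74418 and 12276. Among named miRNAs, miR-451 ranked 37th and 33rd by count at E11, then 19th and 33rd in the E16 libraries and 8th and 17th in those of P1. Mean CPM was 2734 ± 131 for E11, 3756 ± 1938 for E16 and 19496 ± 17765 for P1 (SD, n = 2).

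miR-144-3p, the usual working arm of miR-144, was several times less abundant than miR-451. Its CPM was 350 and 490 for E11, 864 and 361 for E16, and 2334 and 683 for P1. The P1 libraries were above both E11 libraries, but P1 replicate 2 lay below E16 replicate 1, so P1 and E16 overlapped. On the plain share of all counts, P1 overlapped with E11 as well, with 0.0549% in P1 replicate 2 and 0.0577% in E11 replicate 2. Mean CPM was 420 ± 98.7 for E11, 613 ± 356 for E16 and 1509 ± 1168 for P1 (SD, n = 2).

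miR-144-5p, the opposite arm, was the rarest of the 3. Its CPM was 78.8 and 38.9 for E11, 71.9 and 47.5 for E16, and 328 and 117 for P1. Both P1 libraries were above the other 4, and the embryonic ages overlapped. Only 27 counts stood behind the value in each E11 library, against 90 and 46 for E16 and 761 and 207 for P1. Mean CPM was 58.8 ± 28.2 for E11, 59.7 ± 17.3 for E16 and 222 ± 149 for P1 (SD, n = 2).

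**Figure D1:**
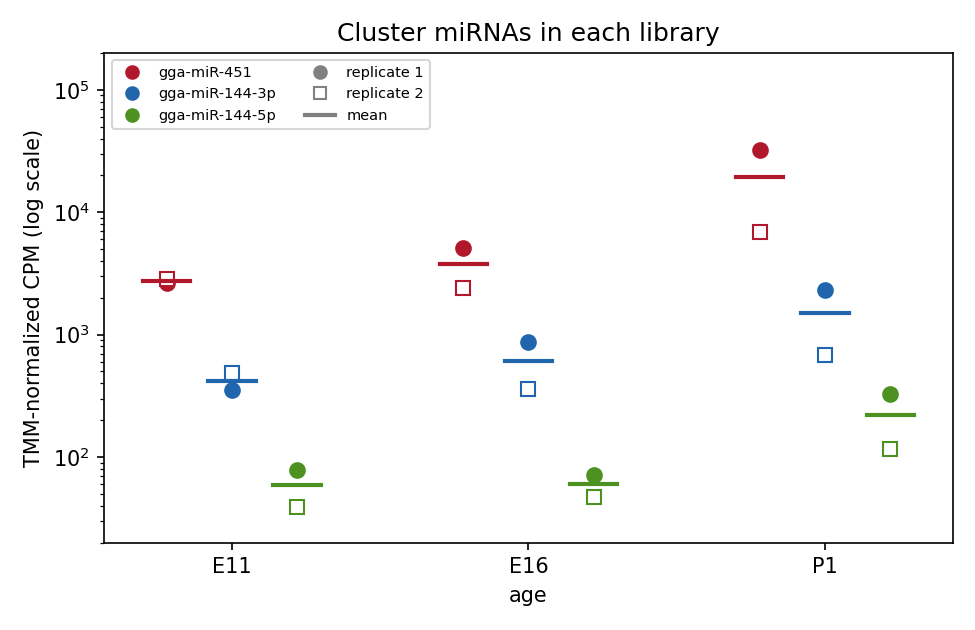
TMM-normalized CPM (log axis) of gga-miR-451, gga-miR-144-3p and gga-miR-144-5p in each library at E11, E16 and P1; filled circles are replicate 1, open squares replicate 2 and bars the mean of the 2. All 3 miRNAs are highest in P1 replicate 1, where miR-451 has 32058 CPM.

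Together the 3 miRNAs took 0.347% of counts in E11 replicate 1 (95% Wilson interval 0.326 to 0.368) and 0.395% in E11 replicate 2 (0.380 to 0.412). They took 0.631% (0.617 to 0.646) and 0.285% (0.275 to 0.296) at E16. At P1 they took 3.05% (3.03 to 3.07) and 0.622% (0.612 to 0.632). The intervals cover counting error alone, and the 2 libraries of an age differed by more than that. P1 replicate 2 lay within the embryonic range, just below E16 replicate 1, so on this measure P1 was apart from E11 and not from E16. The exact two-sided permutation test gave p = 0.333 for P1 against E11, p = 0.667 for P1 against E16 and p = 1 for E16 against E11, and 0.333 is the smallest p that 2 against 2 libraries allow.

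The comparison of P1 with E11 covered the whole span from mid-embryo to hatched chick. miR-451 rose, with a log2 fold change of 2.83 (SE 0.74, Benjamini-Hochberg adjusted p = 0.0318 in the quasi-likelihood test of edgeR, higher in 2 of 2 P1 libraries than in either E11 library). miR-144-3p had 1.84 (SE 0.71, adjusted p = 0.0882 in edgeR) and miR-144-5p had 1.94 (SE 0.71, adjusted p = 0.0769 in edgeR), so neither arm of miR-144 passed the threshold of 0.05. The 1 call among 3 members stands against 88 of 289 entries called in this comparison, 30.4%. All 3 members had both P1 libraries above both E11 libraries in CPM, as did 30.4% of the entries tested. Of the 88 calls, 41 were higher and 47 lower at P1. Scaling by total counts alone gave 20 higher and 64 lower, and moved the median log2 fold change of all entries from -0.15 to -0.62. With total counts miR-451 itself had 2.42 (adjusted p = 0.0538 in edgeR) and lost its call. Relative to the median of each scaling, miR-451 was 2.99 higher with TMM and 3.04 with total counts. Taking off the median removes most of a change of scaling, so the likeness of these values does not test the scaling.

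Leaving out 1 library left fewer than the 3 residual degrees of freedom of the full fit, so a lost call alone does not point to that library. The fold of miR-451 moved most without P1 replicate 1. Without P1 replicate 1 its log2 fold change from E11 to P1 was 1.29 (adjusted p = 0.161 in edgeR), and without P1 replicate 2 it was 3.60 (adjusted p = 0.0140 in edgeR). The call was also lost without either E11 library (adjusted p = 0.135 and 0.148 in edgeR) and without either E16 library (adjusted p = 0.0899 and 0.102 in edgeR), where the fold was between 2.85 and 2.97. With the replicate number as a block it was 2.44 (adjusted p = 0.0582 in edgeR). Without P1 replicate 1, miR-144-3p had 0.65 and miR-144-5p had 0.94.

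The comparison of P1 with E16 spanned hatching. miR-451 had a log2 fold change of 2.38 (SE 0.72, adjusted p = 0.329 in edgeR), miR-144-5p had 1.89 (SE 0.70, adjusted p = 0.343 in edgeR) and miR-144-3p had 1.30 (SE 0.70, adjusted p = 0.474 in edgeR). None of the 3 members passed, and edgeR called 0 of 289 entries (0.00%), while 37 had an unadjusted p under 0.05 and DESeq2 called 2. Both P1 libraries were above both E16 libraries for miR-451 and miR-144-5p and not for miR-144-3p, and 26.3% of the entries tested had both P1 libraries above. Without P1 replicate 1 the log2 fold changes were 0.81 for miR-451, 0.89 for miR-144-5p and 0.085 for miR-144-3p. Without P1 replicate 2 they were 3.11, 2.46 and 1.94.

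Between the 2 embryonic ages no member differed beyond its spread. The log2 fold change of E16 over E11 was 0.46 for miR-451 (SE 0.69, adjusted p = 0.733 in edgeR), 0.54 for miR-144-3p (SE 0.69, adjusted p = 0.678 in edgeR) and 0.041 for miR-144-5p (SE 0.70, adjusted p = 0.984 in edgeR). None of the 3 passed, in a comparison that called 19 of 289 entries, 6.57%. None had both E16 libraries above both E11 libraries, whereas 27.3% of the entries did. Each of these values was smaller than its SE. Without E16 replicate 1 each of the 3 had a value below 0 (-0.15, -0.16 and -0.26), so no direction is given.

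**Figure D2:**
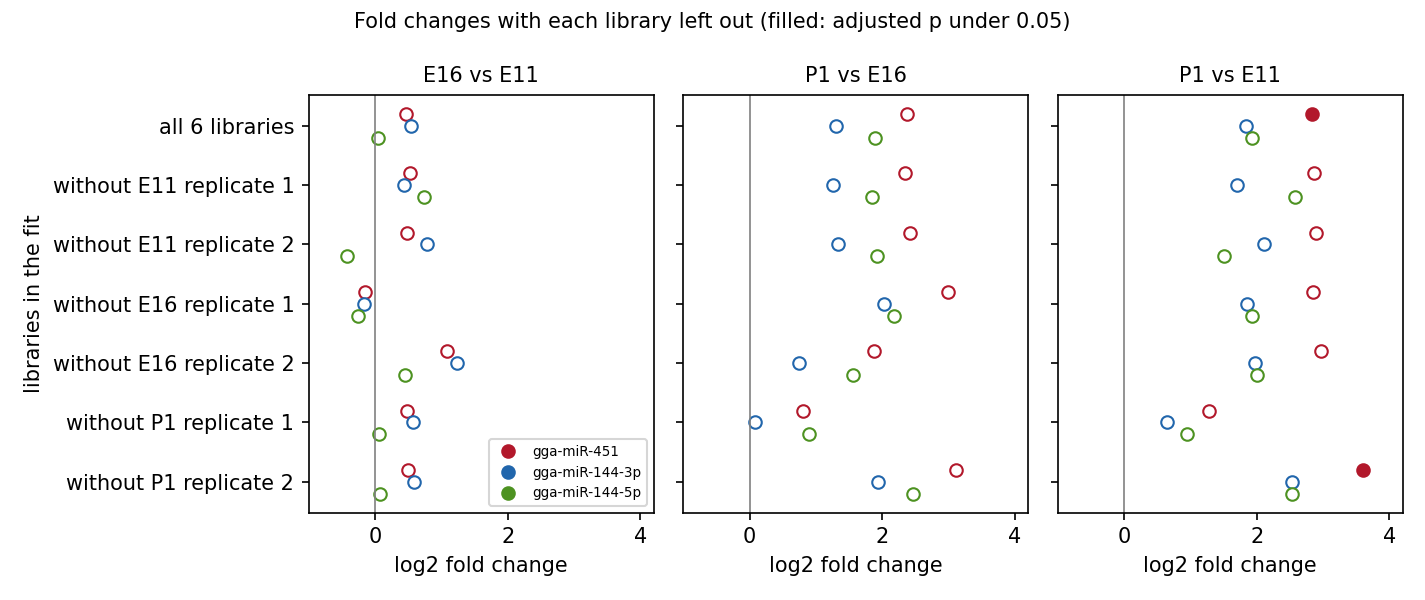
Log2 fold change (x axis) of the 3 miRNAs in each pair of ages, with all 6 libraries and with each library left out (rows); filled points have an adjusted p under 0.05 in edgeR. miR-451 in P1 against E11 is filled with all libraries (2.83) and without P1 replicate 2 (3.60), and P1 replicate 1 moves the values most in both comparisons with P1.

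A trend over the 3 ordered ages was tested by an exact two-sided permutation test on the 90 ways to assign 6 libraries to the ages, whose smallest p is 0.0222. The CPM of miR-451, miR-144-3p and miR-144-5p each gave p = 0.178 in this exact test, and adjusted p = 0.267 over the 6 trends tested (3 levels and 3 ratios). For each of the 3, E16 replicate 2 lay below at least 1 E11 library, and for miR-144-3p E16 replicate 1 also lay above P1 replicate 2.

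Ratios between the products of the cluster were taken from read counts within a library, so library scaling does not enter them. A ratio of reads is not a ratio of molecules, since ligation and amplification favour some small RNAs. Whether this preference was the same in all libraries was not tested.

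Reads of miR-451 were more numerous relative to those of miR-144-3p in both P1 libraries than in any embryonic library. How often the ratio of other pairs of entries separates in this way was not counted. The ratio of miR-451 to miR-144-3p reads was 7.54 (95% interval 6.24 to 9.12) and 5.77 (5.14 to 6.47) for E11. It was 5.93 (5.56 to 6.33) and 6.61 (5.90 to 7.39) for E16, and 13.7 (13.4 to 14.1) and 10.2 (9.57 to 10.8) for P1. The 4 embryonic libraries overlapped with each other, and both P1 libraries were above all 4, with intervals that did not reach theirs. The mean log2 ratio was 2.72 ± 0.27 for E11, 2.65 ± 0.11 for E16 and 3.56 ± 0.31 for P1 (SD, n = 2), a difference of 0.92 for P1 against E16 (1.89-fold) and 0.84 for P1 against E11 (1.79-fold). The exact permutation test gave p = 0.333 for both, the smallest possible value, and p = 1 for E16 against E11. The trend over ages gave p = 0.178 in the exact test. Without P1 replicate 1 the difference was 0.70 for P1 against E16 and 0.63 for P1 against E11. P1 replicate 2, whose share of cluster reads was close to that of E16 replicate 1, had the higher ratio of the pair, 10.2 against 5.93. Within P1, replicate 1 had both the larger share of cluster reads and the larger ratio. Within E11 and within E16, the library with the larger share had the smaller ratio. Each of these sets 1 library against 1, and a link between share and ratio was not tested.

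The 2 P1 libraries also differed from each other in this ratio by more than counting error. Fisher's exact test on their counts gave a ratio of ratios of 1.35 (adjusted p = 8.61e-18 over 9 such tests), which compares these 2 libraries and not the ages. At E11 it was 1.31 (adjusted p = 0.0291, Fisher's exact test) and at E16 0.898 (adjusted p = 0.105, Fisher's exact test).

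**Figure D3:**
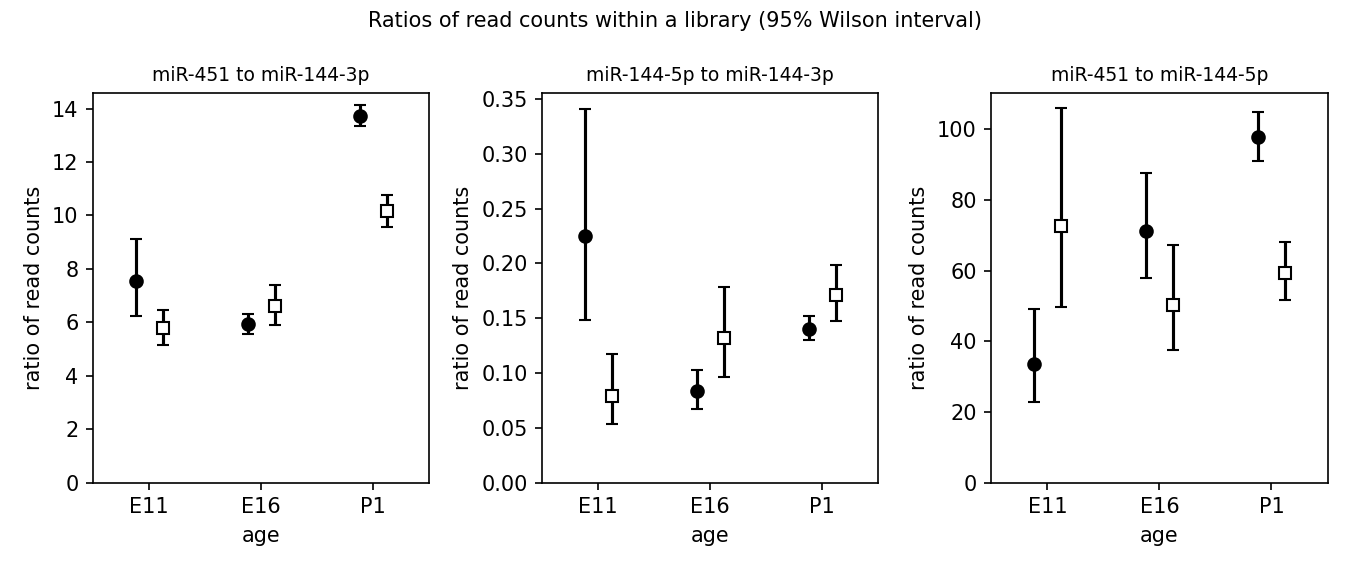
Ratios of read counts within each library with their 95% Wilson intervals (counting error), for miR-451 to miR-144-3p, miR-144-5p to miR-144-3p and miR-451 to miR-144-5p; filled circles are replicate 1 and open squares replicate 2. The ratio of miR-451 to miR-144-3p is between 5.77 and 7.54 in the embryonic libraries and 13.7 and 10.2 at P1, while the other ratios overlap between P1 and E11.

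The arms of miR-144 kept their order in every library, with miR-144-3p the more abundant. miR-144-5p made up 18.4% (95% interval 12.9 to 25.4) and 7.36% (5.11 to 10.5) of miR-144 reads at E11. It made up 7.68% (6.29 to 9.35) and 11.6% (8.82 to 15.1) at E16, and 12.3% (11.5 to 13.2) and 14.6% (12.9 to 16.6) at P1. The highest and the lowest value both came from E11, whose libraries held 27 counts of miR-144-5p each and differed from each other (Fisher's exact test, adjusted p = 0.00199 over 9 tests). Both P1 libraries were above both E16 libraries, by 0.56 on the log2 scale of the arm ratio (exact permutation test, p = 0.333, the smallest possible). P1 and E11 overlapped, with a difference of 0.19 (exact permutation test, p = 1) that was 0.94 without E11 replicate 1 and -0.56 without E11 replicate 2. Over the 6 libraries the log2 arm ratio of miR-144 spanned 1.5. Among the 26 named hairpins with at least 10 counts of each arm in every library this was the 12th widest span. The other 25 had a median span of 1.35, from 0.81 to 4.14. The shift of 0.56 from E16 to P1 was not an extreme one among these hairpins. Some shifts were larger, such as 1.45 for miR-30a and -1.15 for miR-148a. Others were smaller, such as 0.021 for miR-130a and -0.0040 for miR-21. In how many hairpins the P1 and E16 libraries separate was not counted.

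The ratio of miR-451 to miR-144-5p reads was 33.5 (22.9 to 49.0) and 72.7 (49.8 to 106) for E11. It was 71.3 (57.9 to 87.8) and 50.3 (37.6 to 67.2) for E16, and 97.8 (91.1 to 105) and 59.3 (51.7 to 68.0) for P1. All 3 ages overlapped. The exact permutation test gave p = 0.667 for P1 against E16 and for P1 against E11. The mean log2 difference was 0.36 (SD 0.51 at P1 and 0.36 at E16) for P1 against E16, and 0.65 for P1 against E11. In the make-up of the cluster, miR-451 was between 84.2% and 86.0% of cluster reads in the embryonic libraries and 92.3% and 89.7% at P1. miR-144-3p was between 11.4% and 14.6% in the embryonic libraries and 6.72% and 8.83% at P1.

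Within an age, the 3 miRNAs mostly differed between libraries in the same direction. At P1 replicate 1 was above replicate 2 by 4.62-fold for miR-451, 3.42-fold for miR-144-3p and 2.80-fold for miR-144-5p. At E16 it was above by 2.15-fold, 2.39-fold and 1.51-fold. At E11 replicate 1 was lower for miR-451 (0.934-fold) and miR-144-3p (0.715-fold) and higher for miR-144-5p (2.03-fold). Among the 289 entries tested, ordered by the size of the difference between the P1 libraries, miR-451 was 18th, miR-144-3p 25th and miR-144-5p 33rd, and the median entry differed by 0.47 on the log2(CPM + 1) scale. At E16 they were 40th, 33rd and 92nd, with a median of 0.42, and at E11 267th, 177th and 87th, with a median of 0.66. On the same scale miR-2954, a Z-linked male-biased miRNA, had a replicate 1 minus replicate 2 difference of -4.31 at P1. It had -0.029 at E11 and -0.035 at E16. Whether the P1 libraries differ in sex, against the female label, was not tested.

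**Figure D4:**
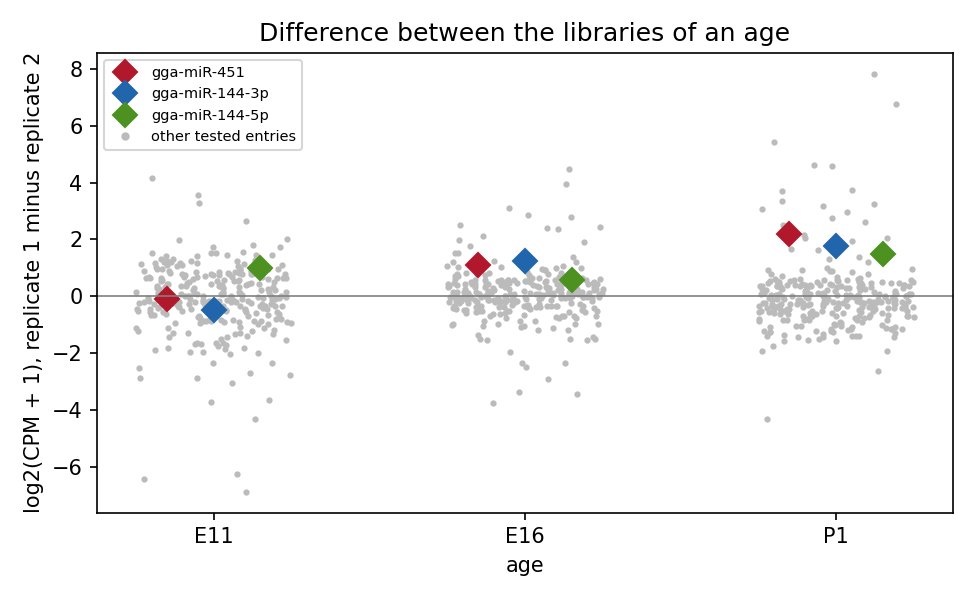
Difference in log2(CPM + 1) between replicate 1 and replicate 2 of each age, for the 3 miRNAs (diamonds) and the other tested entries (grey points). The 3 miRNAs are above 0 at E16 and P1, with miR-451 at 2.21 at P1, and on both sides of 0 at E11.

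Shares of miRNAs listed for other cell types also differed between these libraries. Epithelial miRNAs (8 listed) took 0.0997% of counts in P1 replicate 1 and 0.00309% in replicate 2, muscle miRNAs 12.1% and 15.4%, endothelial miR-126 arms 5.04% and 5.96%, and 10 leukocyte miRNAs (arms of miR-142 and of the miR-146 family, with miR-155 and miR-223) 0.834% and 0.678%. Most of the epithelial share in P1 replicate 1 was miR-203a, with 971 of 1134 summed CPM, against 7.91 of 38.4 in replicate 2. miR-205a (43.5 and 3.39 CPM), miR-205b (59.4 and 23.2) and miR-429-3p (18.1 and 1.13) were also higher in P1 replicate 1. In E11 replicates 1 and 2 the leukocyte list took 2.19% and 1.01%, the epithelial list 1.18% and 1.21%, and the endothelial list 1.55% and 2.18%. In E16 replicates 1 and 2 the leukocyte list took 0.921% and 0.915%, the epithelial list 0.0447% and 0.0158%, and the endothelial list 4.84% and 3.77%. A single miRNA, miR-146c-5p, made up between 89.3% and 99.2% of the leukocyte counts. The other 9 leukocyte miRNAs together took 0.0181% and 0.0253% of counts for E11, 0.0378% and 0.0287% for E16, and 0.0892% and 0.0345% for P1, so that they were higher in replicate 1 at E16 and P1, as the cluster was. From E11 to P1 both endothelial arms rose, and 5 of 7 epithelial miRNAs tested fell and none rose, where 14.2% of all entries rose and 16.3% fell. The cartilage list (1 entry tested) and the neural list (2 entries tested) had no call in any comparison. miR-122-5p, the 1 liver entry tested, fell by 3.54 from E11 to P1 (SE 1.02, adjusted p = 0.0414 in edgeR). It had 5.84 and 87.9 CPM for E11 and 4.31 and 3.95 for P1, so only E11 replicate 2 was far above the P1 libraries. Between 0 and 2 of the 10 leukocyte miRNAs, between 0 and 2 of the 8 epithelial ones and none of the endothelial arms were at 0 in a library. The part of these differences, or of the blood left in a sample, in the rise of miR-451 was not tested.

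Likeness of profile was measured by Pearson's r of log2(CPM + 1) with miR-451 over the 6 libraries, among the other 198 named entries tested, as a description. The 5 most alike were miR-144-3p (r = 0.97), miR-2188-5p (r = 0.96), miR-144-5p (r = 0.94), miR-142-5p (r = 0.91) and miR-146a-5p (r = 0.90), so the products of the cluster took places 1 and 3. The points share depth and age, and P1 replicate 1 is the highest library for each of these. For miR-144-3p the most alike were miR-451 (r = 0.97), miR-223 (r = 0.94), miR-142-5p (r = 0.92), miR-2188-5p (r = 0.90) and miR-365-3p (r = 0.86), and its own opposite arm came 7th (r = 0.85).

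miR-2188-5p had 409 and 284 CPM for E11, 632 and 533 for E16, and 3367 and 806 for P1, and it rose from E11 to P1 (log2 fold change 2.59, SE 0.70, adjusted p = 0.0337 in edgeR). Like the cluster it was higher in replicate 1 of P1. miR-142-5p, a miRNA of blood cells generally, had 61.3 and 101 CPM for E11, 208 and 160 for E16, and 657 and 205 for P1, and it rose from E11 to P1 (log2 fold change 2.40, SE 0.71, adjusted p = 0.0432 in edgeR). miR-223, which is found in myeloid cells, had 23.3 and 43.2 CPM for E11, 55.9 and 26.8 for E16, and 99.1 and 31.6 for P1, and did not pass (0.94, SE 0.72, adjusted p = 0.382 in edgeR). Of the 8 leukocyte miRNAs tested, 4 rose from E11 to P1 (miR-142-5p, miR-146a-3p, miR-146a-5p and miR-146b-5p) and none fell, where 14.2% of all entries rose and 16.3% fell. Their median log2 fold change was 1.52, against 1.94 for the 3 members and -0.15 for all entries. The most abundant one, miR-146c-5p, had -0.75 (SE 0.42, adjusted p = 0.223 in edgeR).

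Other miRNAs have a described part in the maturation of blood cells in mammals. Among 26 listed (among them miR-15, miR-16, miR-22, miR-24, miR-103, miR-221, miR-222 and miR-223), 14 were tested, and 3 rose and 1 fell from E11 to P1, with a median log2 fold change of 0.016, where 30.4% of all entries were called. Those that rose were miR-22-3p (1.62, SE 0.29, adjusted p = 0.0115 in edgeR), miR-15a (1.58, SE 0.48) and miR-24-3p (1.45, SE 0.44). miR-222a, which with miR-221 represses KIT in human erythroid progenitors, fell by 1.78 (SE 0.38, adjusted p = 0.0207 in edgeR). miR-16-5p, abundant in mammalian red cells, had between 4201 and 5557 CPM in every library and a log2 fold change of -0.06 (SE 0.30, adjusted p = 0.907 in edgeR). None of the 14 passed between E16 and E11, where 6.57% of all entries did, or between P1 and E16, where none of the entries did in edgeR.

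miR-101-3p, whose seed resembles that of miR-144-3p, was far more abundant than it in every library, with 7372 and 5459 CPM for E11, 7471 and 9806 for E16, and 10687 and 12852 for P1. Its log2 fold change from E11 to P1 was 0.88 (SE 0.33, adjusted p = 0.0829 in edgeR). Unlike the cluster's miRNAs it was lower in P1 replicate 1 than in replicate 2.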

How the data were processed

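Small RNA libraries were made from Trizol-extracted RNA by Illumina protocols, per the labels' protocols. The submitters' processing notes name Trim Galore, Bowtie, TopHat, Cufflinks and galGal4 without roles or versions, and how reads were assigned to miRNAs is not stated. Each deposited value was taken as the read count of a miRNA: all are whole, 1 is the smallest and most frequent value in each file, and totals differ, although the file headers say FPKM. If they were rounded FPKM, the count tests and intervals would not hold. Entries missing from a file were set to 0.

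Counts were fitted in R 4.3.3 with edgeR 4.0.16 (filterByExpr, minimum count 10, 289 entries tested, TMM, quasi-likelihood with 1 coefficient per age over all 6 libraries, 3 residual degrees of freedom, Benjamini-Hochberg over all entries, threshold 0.05). The SE is the fold change divided by the square root of F. The fit was tested on simulated data drawn with its own estimate of spread, which cannot show whether that estimate is right. DESeq2 1.42.0 and limma 3.58.1 were alternatives. Ratios used a pseudocount of 0.5 on the log2 scale, and intervals are Wilson 95%. Replicates differed by far more than sampling noise (chi-square per degree of freedom 171 to 489). The members and lists were chosen with earlier results of these data known. The text names the members, the 5 named entries most alike to miR-451 and to miR-144-3p, and up to 4 abundant members of a list. The other miRNAs that passed in a list, and miR-2954, were named after their values were seen. So were miR-30a, miR-148a, miR-130a and miR-21, given as examples of arm shifts.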

Additional observations from a re-analysis of the deposited data

How the results depend on the processing

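Directions of miR-451, miR-144-3p and miR-144-5p at P1 against E16 and against E11 were kept in all 18 alternatives of each, and the size of the fold rested on P1 replicate 1. For P1 against E11, miR-451 lost its call with total counts (2.42), limma (2.45), the 2 ages alone (2.84) and the replicate block (2.44), and had 1.29 to 3.60 with 1 library left out. miR-144-3p and miR-144-5p passed there with no filter (2.22 and 2.29) and in DESeq2 (1.95 and 2.04), and miR-451 passed for P1 against E16 with no filter (2.49). For E16 against E11, miR-144-5p went below 0 with named entries alone (-0.0095), upper quartile factors (-0.070) and total counts (-0.11), and with 1 library left out miR-451 had -0.15 to 1.08, miR-144-3p -0.16 to 1.23 and miR-144-5p -0.42 to 0.74. The number of entries called for E16 against E11 was 12 with named entries alone, 46 with no filter, 38 in DESeq2 and 0 to 11 with 1 library left out. For P1 against E16 it was 13 with no filter, 2 in DESeq2 and 0 to 1 with 1 library left out. For P1 against E11 it was 28 with the 2 ages alone, 30 with the replicate block and 10 to 61 with 1 library left out. The cause of these shifts was not tested.

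Deviations of same-numbered libraries correlated between E16 and P1 (r of 0.32) and not between E11 and E16 (0.0013) or E11 and P1 (-0.027). The numbers were not taken as pairs in the main fit. An effect shared by the E16 and P1 libraries of the same number was not tested. With 1 library left out, the log2 ratio of miR-144-5p to miR-144-3p had -1.12 to 0.38 for E16 against E11 and -0.56 to 0.94 for P1 against E11, that of miR-451 to miR-144-5p -0.26 to 0.85 for E16 against E11 and -0.0056 to 0.72 for P1 against E16, and that of miR-451 to miR-144-3p -0.26 to 0.12 for E16 against E11. miR-144-5p had 27 counts in each E11 library, so its values there are imprecise. The arm ratios of the E11 libraries also differed by more than counting error (Fisher's exact test, adjusted p = 0.00199), for a cause that was not tested. Counting matching entries once, other scalings of the trend tests, other denominators and the leukocyte list without miR-146c-5p were added after seeing the data.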
